A study of Mus musculus with 3 samples.

Results

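The cells described here are the cytotoxic T cells of the adult mouse lacrimal gland (LG), the gland that secretes the aqueous part of tears. They were selected on measured values, the UMIs (molecule counts) of 17 genes in droplet single-cell RNA sequencing (scRNAseq). A cell had at least 1 UMI over the CD3 genes *Cd3d*, *Cd3e* and *Cd3g* and at least 2 UMIs over *Cd8a*, *Cd8b1*, *Ccl5*, *Ly6c2* and *Nkg7*. It also had no UMI of the NK cell receptor genes *Klra8*, *Klre1* and *Klra4*, the γδ T cell genes *Tcrg-C1* and *Il17a*, the epithelial gene *Epcam*, the fibroblast gene *Col1a1* or the macrophage genes *Csf1r* and *C1qa*. Of 19592 cells that passed the quality limits, 134 met the rule (0.684%).

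The LGs came from untreated C57BL/6J mice aged 2 months. There was 1 female library and 2 male libraries, and each was a pool of 6 glands from 3 animals. The pools do not show how single animals vary, and a single female pool allows no test of sex. The female pool also differed from the male pools in its sequencing core and its day, and these cannot be told apart from sex.

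CD8 T cells recognise peptides on class I major histocompatibility molecules through a T cell receptor that signals through the CD3 chains. As effectors they release chemokines and interferon-γ, and they kill target cells with perforin and granzymes. NK cells share much of this program but carry no rearranged T cell receptor and read their targets through germline-encoded receptors. Both lymphocyte types are found in exocrine glands at rest.

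The 134 cells were 67 of 8298 cells in the female library, 21 of 5582 in male library 1 and 46 of 5712 in male library 2. These are 0.807%, 0.376% and 0.805% of the cells, with exact 95% binomial intervals of 0.626% to 1.02%, 0.233% to 0.575% and 0.590% to 1.07%. The interval of male library 1 lay below those of the other libraries, male library 2 included. The intervals cover counting error only. The cells were shallow, with medians of 2412, 1359 and 1130.5 UMIs, and 38.1%, 56.5% and 63.5% of their UMIs belonged to 122 tear-product genes such as *Mucl2* and *Obp1a*. Lymphocytes do not make these products, and the share in barcodes too poor to be cells (10 to 100 UMIs) was 68.9%, 79.8% and 79.8%. Levels are therefore given as CPM, UMIs scaled to the total outside those genes, over totals of 123728, 12842 and 24664 UMIs in the order female, male 1, male 2, which is kept below.

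No barcode of a member occurred among the kept cells of another library, while 11, 17 and 11 kept barcodes were shared between pairs of libraries. Doublet scores removed 1 member when the highest scores were left out. Of the markers of other lineages, those of neutrophils (4 genes) and mast cells (4 genes) were all at 0 in the members. The B cell list showed *Cd79b* alone (2 UMIs, with *Cd79a*, *Ms4a1* and *Pax5* at 0) and the plasma cell list *Xbp1* alone. The summed level of the macrophage list (5 genes) was 0 to 24.2 CPM, that of the endothelial list 0 to 32.3 CPM, of the fibroblast list 0 to 77.9 CPM, of the mural list 0 to 64.7 CPM and of the epithelial list 234 to 405 CPM. The dendritic cell and monocyte list (8 genes, *Cd209a*, *Flt3*, *Xcr1* and *Siglech* at 0) stood at 307, 2492 and 203 CPM, and in male library 1 a single cell held all 23 UMIs of *Cd74*. The γδ T cell list stood at 77.9 to 88.9 CPM, the NK cell list at 162 to 545 CPM and the innate lymphoid list at 0 to 331 CPM.

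The genes of the rule chose the cells, so their levels are a description without a test. *Ccl5*, a chemokine that draws T cells and monocytes, gave 670, 73 and 170 UMIs in the members, or 5415, 5684 and 6893 CPM. It was found in 118 of the 134 cells. *Nkg7*, a granule membrane protein of cytotoxic lymphocytes, stood at 1196, 1090 and 1703 CPM and was found in 86 cells. *Ly6c2*, a surface antigen of memory T cells and monocytes, stood at 832, 1246 and 1176 CPM and was found in 70 cells. *Cd3g*, a CD3 chain, stood at 630, 1246 and 933 CPM. The means over libraries were 5997 ± 787, 1330 ± 327, 1085 ± 221 and 936 ± 308 CPM (SD, n = 3), and the female library was the lowest for *Ccl5*, *Ly6c2* and *Cd3g*. The gate of the NK cells required no *Cd3g* UMI but did not use *Ccl5*, *Nkg7* or *Ly6c2*. In those cells *Ccl5* averaged 2898 CPM, *Nkg7* 1250 CPM and *Ly6c2* 59.2 CPM. The level of *Nkg7* was thus close to that of the members. *Ly6c2* has a close copy, *Ly6c1*, that could share its reads. Barcodes of free RNA held 6, 7 and 7 UMIs of *Ccl5* (283, 149 and 201 CPM) and none of *Nkg7* or *Cd3g*.

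The CD8 chains were the rarest genes of the rule. *Cd8a* gave 32, 2 and 1 UMIs and *Cd8b1* 58, 2 and 7 UMIs in the members. A UMI of either was present in 35 of 67, 4 of 21 and 8 of 46 cells, 47 in all, and both chains together in 16 cells, all of them in the female library. *Cd4*, the co-receptor of helper T cells, was seen in 5 cells, 1 of which also had a CD8 UMI, and 83 cells had neither co-receptor. The shares with *Cd8b1* were 44.8%, 9.52% and 15.2%. After each cell was thinned to 1000 UMIs, which left out 2, 3 and 14 cells, they were 18.5%, 11.1% and 12.5%, and the female share then lay within the exact 95% intervals of both male shares. Those intervals rest on few cells, so they cannot exclude a difference. Thinning also left the depth outside tear-product genes unequal, since these took 38.1%, 56.5% and 63.5% of the UMIs. The cause of the difference in shares was not tested. Cells gated as fibroblasts (*Col1a1* and *Pdgfra* UMIs, no *Ptprc*), which should lack the gene, had no *Cd8b1* UMI in 980, 156 and 53 cells at medians of 3389, 1656.5 and 1295 UMIs. Their share with a *Ccl5* UMI was 0.816%, 0% and 0%, against 92.5%, 85.7% and 82.6% of the members, or 83.1%, 77.8% and 81.3% after thinning.

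**Figure D1:**
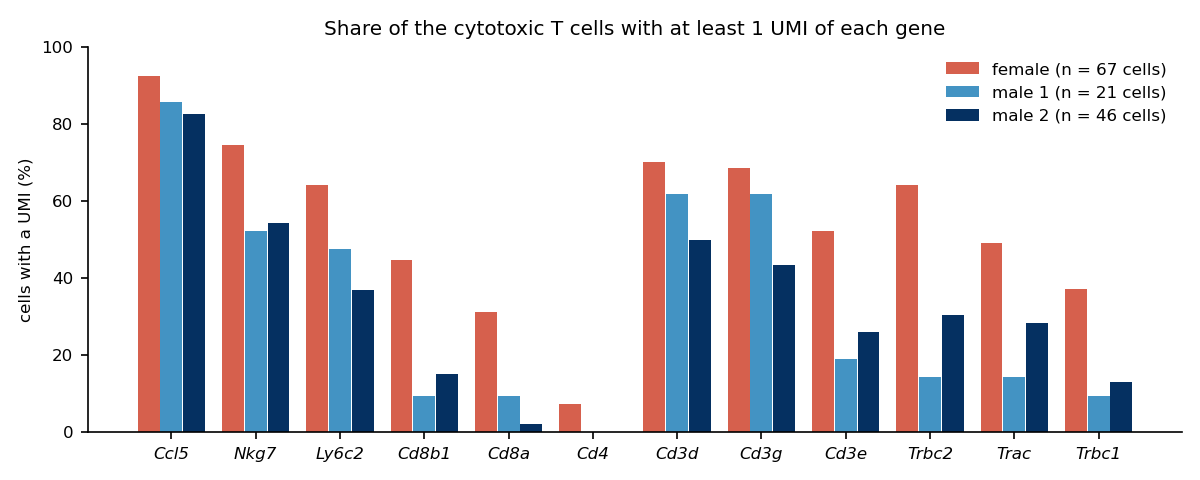
Share of the cytotoxic T cells with at least 1 UMI of each gene (y axis, percent of cells, not thinned), by library; the legend gives the number of cells. *Ccl5* was seen in over 82% of the cells of each library, and the CD8, CD4 and T cell receptor genes in a larger share of the deeper female cells.

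At the edge of the rule, 18 members (4, 3 and 11 cells) had exactly 2 UMIs over the 5 effector genes. Just outside it, 10, 5 and 16 cells had 1 UMI and met the other conditions. *Ccl5* gave 3, 2 and 6 UMIs in the cells inside and 2, 2 and 8 in those outside. The median sum over these genes was 14, 4 and 4 UMIs per member, with a maximum of 51. In 19 members *Ccl5* was the only gene of the 5 that was seen, and 61 members rested on a single CD3 UMI.

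**Figure D2:**
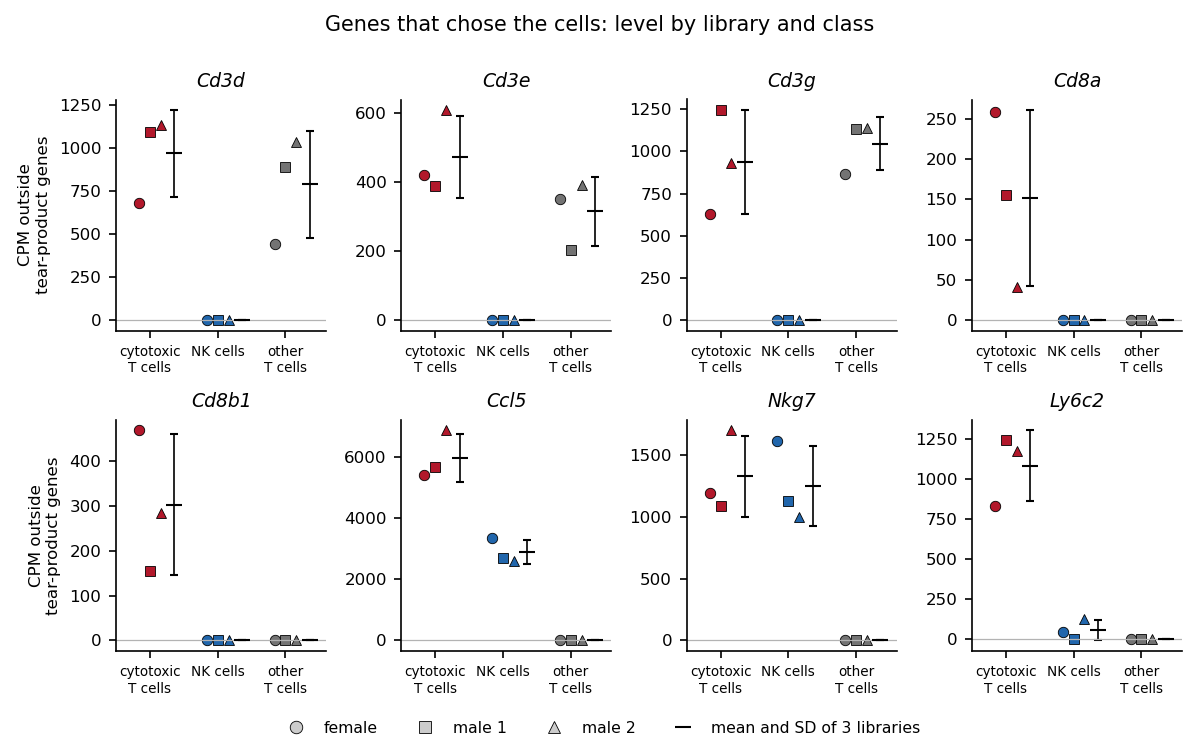
Level (y axis, CPM outside tear-product genes, linear) of the CD3 and effector genes of the rule in the cytotoxic T cells, NK cells and other T cells; each point is a library (circle female, square male 1, triangle male 2), and the bar gives the mean and SD of 3 libraries. The 5 effector genes are at 0 in the other T cells and the CD3 genes at 0 in the NK cells because the gates require it.

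The promoters of *Nkg7* and *Ly6c2* are shown because these genes are part of the rule and their 5′ regions are given in the RefSeq table (build GRCm38.p6, the patch release of mm10, which the submitters name as their genome). Of the 11 genes looked up there, 8 had an entry; *Ccl5*, *Cd8b1* and *Ccl4* were not among them. Each line gives the 250 bases before the start site of a RefSeq entry, 5′ to 3′ on the gene's own strand. Capitals mark the letters TGTGGT, the core bound by RUNX factors, or GGTGTG, the core bound by T-box factors such as T-bet and Eomes, on either strand (ACCACA and CACACC on the other). *Nkg7* lies at chr7:43437138-43438246 on the plus strand and its window at chr7:43436888-43437137. *Ly6c2* lies at chr15:75108161-75112066 on the minus strand and has 2 entries, both starting inside that span; the window of the first, at chr15:75111972-75112221, is printed and overlaps the annotated gene.
Nkg7: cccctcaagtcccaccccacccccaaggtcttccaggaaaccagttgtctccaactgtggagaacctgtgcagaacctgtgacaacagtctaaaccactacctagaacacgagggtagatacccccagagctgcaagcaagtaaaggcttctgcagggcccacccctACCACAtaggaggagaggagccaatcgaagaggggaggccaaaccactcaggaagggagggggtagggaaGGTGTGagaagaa
Ly6c2: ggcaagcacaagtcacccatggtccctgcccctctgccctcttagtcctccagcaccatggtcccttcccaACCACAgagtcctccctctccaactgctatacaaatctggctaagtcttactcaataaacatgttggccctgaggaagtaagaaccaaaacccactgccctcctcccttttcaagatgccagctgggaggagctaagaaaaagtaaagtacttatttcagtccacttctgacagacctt

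The *Nkg7* window held 1 RUNX core, from 83 to 78 bases before the start, and 1 T-box core, from 13 to 8 bases before it. The printed *Ly6c2* window held 1 RUNX core, from 179 to 174 bases before the start of the first entry, which is 213 to 208 bases before that of the second. Of the 32851 promoter windows in the table, 14.0% held the RUNX letters and 16.3% the T-box letters. A match is a description of the sequence and no measured binding site.

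Genes that the rule did not use were read as a check of the name. *Trac*, the constant chain of the αβ T cell receptor, gave 55, 4 and 17 UMIs and was found in 49 of the 134 members. *Trbc2* was found in 60 members and *Trbc1*, the other constant region of the β chain, in 33. *Trdc*, the δ chain, gave 7, 0 and 1 UMIs. Reads over variable segments were few: 2 cells had a *Trav* UMI, 4 a *Trbv* UMI and 2 a UMI of *Trgv2*, each segment in at most 2 cells, so receptor diversity could not be read from these counts. The NK cells also held *Trbc1*, at 286, 141 and 282 CPM against 525, 156 and 284 CPM in the members, while *Trac* was near 0 in the NK cells. The killing genes were scarce: *Gzma* gave 5, 0 and 0 UMIs, *Gzmb* 2, 3 and 2, *Gzmk* 6, 1 and 0, and *Prf1*, perforin, 5, 0 and 0. The word cytotoxic thus rests here on *Ccl5*, *Nkg7*, *Ly6c2* and the CD8 chains of the rule, not on granzymes or perforin.

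The first comparison asked how the members differ from the NK cells of the same suspensions, taken as cells with a *Klra8*, *Klre1* or *Klra4* UMI and no CD3 UMI (227, 44 and 61 cells). Counts were summed per library and class and tested with the quasi-likelihood test of edgeR with library as a block, leaving out the genes of the rule and adjusting p-values by Benjamini-Hochberg. Of 636 genes tested, 37 passed an adjusted p of 0.05 (5.82%), 17 higher (2.67%) and 20 lower (3.14%) in the members. T cell receptor and co-stimulation genes were higher in the members, and *Gzma*, the receptor adaptors *Tyrobp* and *Fcer1g* and the chemokines *Xcl1* and *Ccl3* were lower. Scaled by total UMIs instead of the trimmed mean of M values (TMM), 24 genes passed, 15 higher and 9 lower. That scaling moved the median log2 fold change over all genes from −0.08 to 0.07. Without the female library, which held most cells, 16 genes passed, 6 higher and 10 lower.

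Of the 17 genes of the T cell receptor and signalling list, 7 were measured and 4 were higher, with none lower. The members needed a CD3 UMI and the NK cells had none, and genes low in the NK cells could pass the count filter through the members, so the direction of this count is partly set by the gates and the filter. *Trac* stood at 445, 311 and 689 CPM in the members and at 10.3, 28.3 and 0 CPM in the NK cells (log2 fold change 5.23 ± 0.46 SE, adjusted p = 7.97e-09, edgeR). *Cd28*, the co-stimulatory receptor, stood at 364, 234 and 365 CPM against 61.7, 0 and 25.6 CPM (2.69 ± 0.37, adjusted p = 1.51e-05, edgeR). *Thy1*, a surface glycoprotein of T cells, stood at 388, 234 and 405 CPM against 72.0, 28.3 and 51.3 CPM (2.46 ± 0.34, adjusted p = 1.51e-05, edgeR). The members lay above the NK cells in every library for these genes. *Trbc2* stood at 841, 234 and 973 CPM against 169, 254 and 76.9 CPM (2.19 ± 0.32, adjusted p = 3.02e-05, edgeR). In male library 1, with 3 UMIs in the members, it was no higher than in the NK cells.

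The other genes with the largest differences are not on the receptor list. *Gm8369*, a gene of unstated function on chromosome 19 (chr19:11488955-11512577), gave 20, 4 and 6 UMIs in the members and none in the NK cells. Pooled over libraries, its level in the members was 34.8-fold above a limit of 3 UMIs over all NK cells. This ratio leaves out the counting error of the members and the spread between libraries. The edgeR test of the counts per library gave an adjusted p = 2.78e-08. The gene passed the count filter through the members. *Gpr183*, an oxysterol receptor that guides lymphocyte positioning, stood at 210, 234 and 284 CPM against 12.3, 0 and 0 CPM (log2 fold change 4.21 ± 0.46). *Ifi27l2a*, an interferon-inducible gene, stood at 469, 311 and 1379 CPM against 30.9, 84.8 and 51.3 CPM (3.77 ± 0.37). *S100a4*, a calcium-binding protein high in memory T cells, stood at 606, 1324 and 730 CPM against 105, 28.3 and 282 CPM (2.48 ± 0.35). The libraries of the 2 cell types did not overlap for any of these 4 genes. They were named for the size of their differences, so this restates that choice. The share of all tested genes without overlap was not counted in either comparison. *Ms4a6b*, a T cell membrane protein of a family with close copies, differed by 2.37 ± 0.38 and *Bcl2a1b*, a BCL2-family survival gene with near-identical copies that could share its reads, by 2.36 ± 0.39.

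On the other side stood the receptors of NK cells. Of the 20 genes of the NK and inhibitory receptor list, 4 passed the count filter and these 4 were lower in the members. *Tyrobp*, the DAP12 adaptor through which activating NK receptors signal, stood at 40.4, 234 and 122 CPM in the members and at 1716, 1611 and 1615 CPM in the NK cells (−4.56 ± 0.34, adjusted p = 7.46e-10, edgeR). *Fcer1g*, the other signalling adaptor, stood at 194, 545 and 162 CPM against 1477, 1413 and 1461 CPM (−2.72 ± 0.27, adjusted p = 5.64e-08, edgeR). *Klrd1*, the CD94 chain, and *Klrk1*, the activating receptor NKG2D, both of which CD8 T cells can also carry, differed by −1.79 ± 0.31 and −1.13 ± 0.31. The members held 28, 3 and 2 UMIs of *Klrd1* and 31, 5 and 6 of *Klrk1*. The NK cells were gated on genes of the same receptor family and the members on their absence, and genes low in the members could pass the filter through the NK cells, so this count partly follows from the gates and the filter.

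Of the 15 genes of the granule and killing list, 3 were measured and 1 was lower. *Gzma*, granzyme A, stood at 40.4, 0 and 0 CPM against 963, 1272 and 1384 CPM (−5.12 ± 0.41, adjusted p = 2.18e-09, edgeR), and its 5 UMIs lay in 3 of the 134 members, while 111 of the 332 NK cells had it. *Srgn*, the granule proteoglycan, and *Ctsw*, a protease of cytotoxic cells, did not pass the test, at 872 and 247 CPM in the members and 705 and 430 CPM in the NK cells on average. *Gzmb* and *Prf1* were below the count filter. Their means were 110 ± 112 and 13.5 ± 23.3 CPM in the members and 192 ± 129 and 152 ± 85.2 CPM in the NK cells (SD, n = 3 libraries). The spread of *Gzmb* was as large as its mean, so no order could be read for it.

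Of the 11 effector cytokines and chemokines, 5 were measured and 2 were lower. *Xcl1*, the chemokine that attracts cross-presenting dendritic cells, stood at 267, 857 and 487 CPM in the members against 2307, 1978 and 1794 CPM (−2.51 ± 0.25, adjusted p = 5.64e-08, edgeR). *Ccl3* stood at 154, 311 and 243 CPM against 685, 706 and 231 CPM (−1.68 ± 0.35, adjusted p = 0.0022, edgeR), lower in 2 of 3 libraries. *Ifng*, interferon-γ, was at 242, 1012 and 608 CPM in the members and 171, 396 and 103 CPM in the NK cells, higher in 3 of 3 libraries without passing the test (0.98 ± 0.33, adjusted p = 0.0992, edgeR). The chemokine *Ccl4* was at 436, 1791 and 1581 CPM against 1337, 1130 and 1179 CPM, lower in the female library and higher in both male libraries (−0.56 ± 0.29, adjusted p = 0.355, edgeR).

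The other lists gave few calls. Among cytokine receptors 1 of 3 measured genes was lower, *Il2rb*, the β chain shared by the IL-2 and IL-15 receptors (−1.30 ± 0.32). Among interferon-stimulated genes 1 of 2 was higher, *Ly6a* (1.63 ± 0.37), the surface antigen Sca-1. Among immediate early genes 1 of 12 was lower, *Jun* (−1.26 ± 0.24), which stood in free RNA at 519, 1321 and 1233 CPM. None of 8 heat shock genes, 3 cell cycle genes, 3 tissue residence genes, 2 recirculation genes or 2 transcription factors passed, and no checkpoint or helper gene had enough UMIs to be tested. Besides these, annexin A2, *Anxa2* (−1.94 ± 0.36), glucosylceramide synthase, *Ugcg* (−1.82 ± 0.36), and the Tec kinase *Txk* (−1.71 ± 0.36) were among the 10 genes with the lowest fold change. Of 80 ribosomal protein genes, 4 were higher and none lower, with a median of 0.11, and with total UMI scaling 2 were higher.

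Of the 37 genes, 8 passed under every alternative in which they could be tested, namely *Trac*, *Thy1*, *Gpr183*, *Ifi27l2a*, *Xcl1*, *Fcer1g*, *Tyrobp* and *Gzma*.

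**Figure D3:**
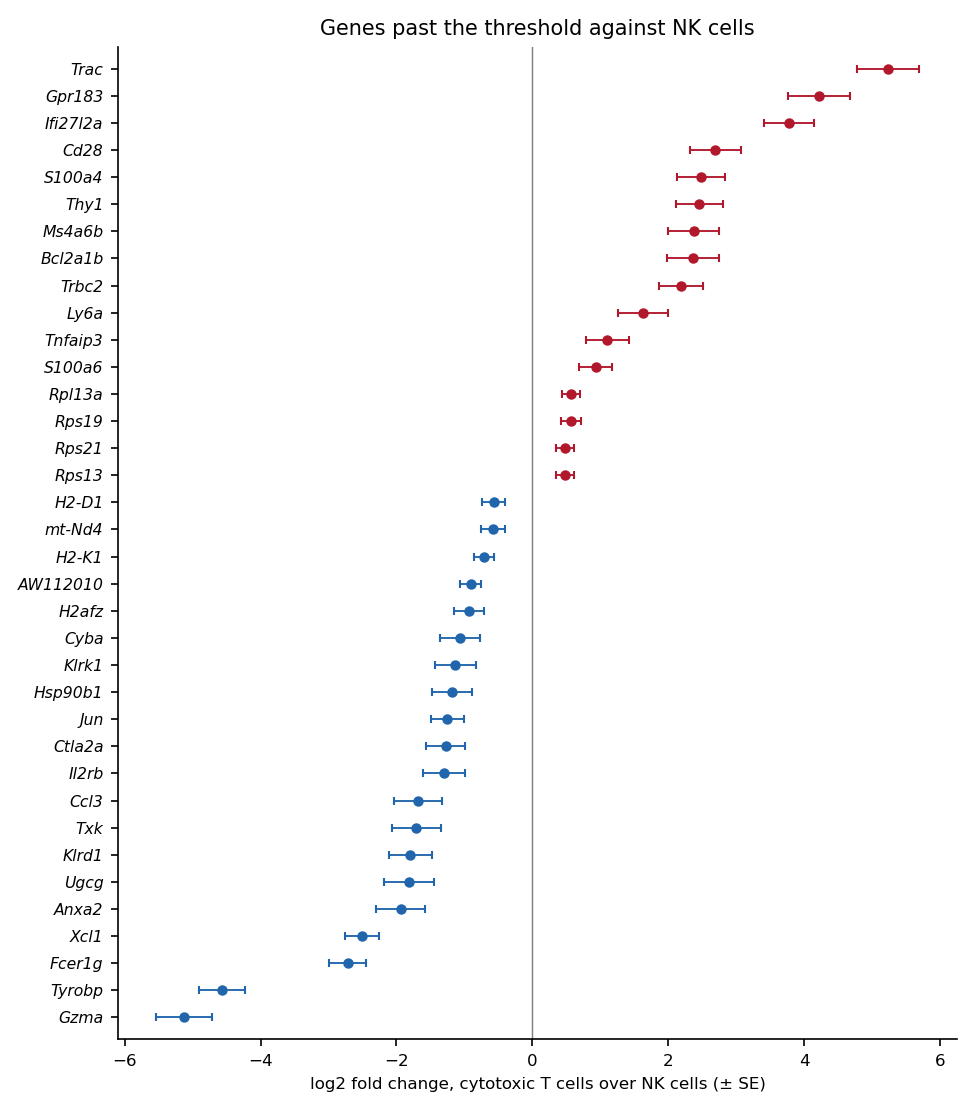
Log2 fold change of the cytotoxic T cells over the NK cells (x axis, ± SE, edgeR, n = 3 libraries each) for the genes past an adjusted p of 0.05; *Gm8369*, with no UMI in the NK cells, is left out. *Trac* is at the top with 5.23 and *Gzma* at the bottom with −5.12.

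Genes of residence and recirculation were read as levels. *Cd69*, which retains T cells in tissue, gave 83, 13 and 13 UMIs in the members and stood at 671, 1012 and 527 CPM. It was at 446, 311 and 205 CPM in the NK cells, higher in the members in 3 of 3 libraries without passing the test (0.86 ± 0.27, adjusted p = 0.0648, edgeR), and at 542, 526 and 321 CPM in the other T cells. *Itgae*, the CD103 integrin of epithelial resident T cells, gave 3, 0 and 0 UMIs, and *Cxcr6* 24, 0 and 1. *Zfp683*, the residence factor Hobit, gave none. *Klf2*, which drives the exit genes, gave 48, 4 and 7 UMIs (388, 311 and 284 CPM) and its target *S1pr1*, the sphingosine-1-phosphate receptor, 15, 0 and 6. *Klf2* was at 146, 40.5 and 142 CPM in the other T cells, below the members in every library. With so few UMIs in the male libraries it was below the count filter there and was not tested. *Il7r*, the IL-7 receptor of memory T cells, gave 41, 1 and 8 UMIs, and the lymph node homing gene *Ccr7* 2, 0 and 1. *Cd69* was seen in 49 of the 134 members, *Klf2* in 35 and *Cxcr6* in 19.

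**Figure D4:**
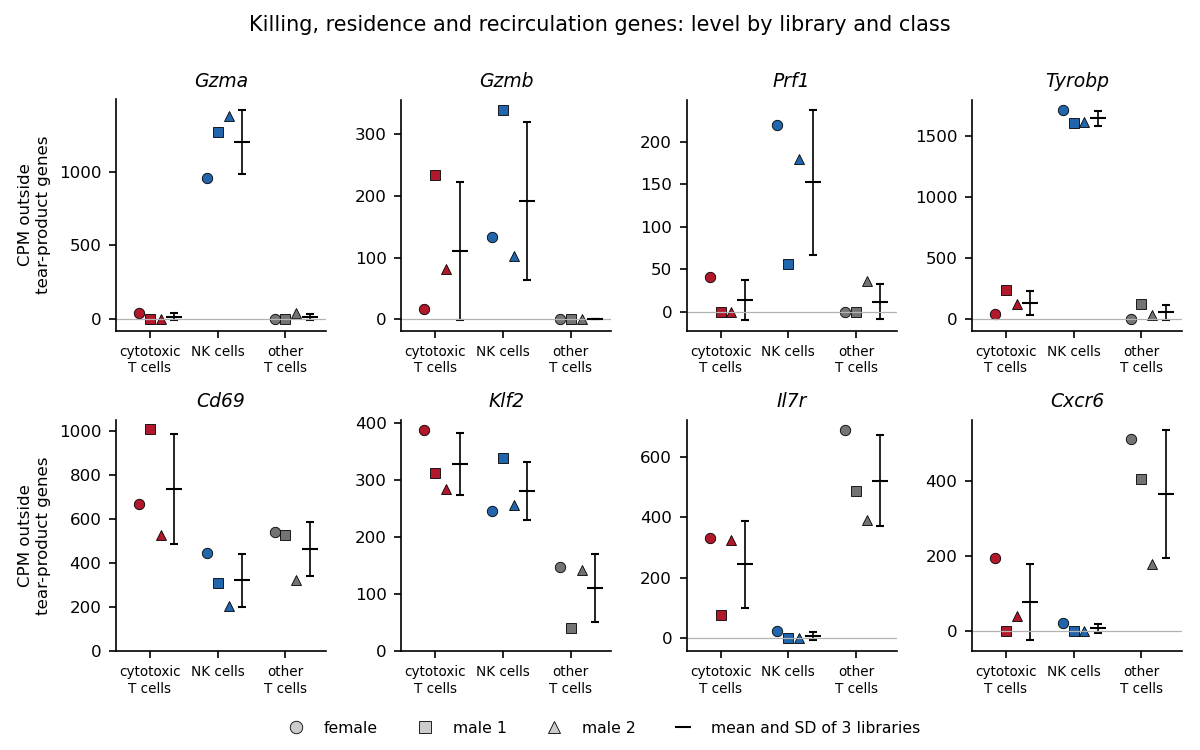
Level (y axis, CPM outside tear-product genes, linear) of killing, residence and recirculation genes in the cytotoxic T cells, NK cells and other T cells; each point is a library (circle female, square male 1, triangle male 2), and the bar gives the mean and SD of 3 libraries. *Gzma* and *Tyrobp* are high in the NK cells alone, while *Cd69* and *Klf2* have their highest mean in the cytotoxic T cells.

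Effector transcription factors had few UMIs. *Tbx21*, T-bet, gave 6, 2 and 2, *Eomes* 7, 0 and 0 and *Runx3* 31, 2 and 3. *Eomes* stood at 56.6, 0 and 0 CPM against 282, 141 and 128 CPM in the NK cells, was below the count filter and was not tested. Checkpoint receptors were near the limit of detection: *Pdcd1*, PD-1, gave 1, 0 and 1 UMIs, *Lag3* 2, 0 and 1, *Ctla4* 6, 1 and 2, and *Tigit* and *Havcr2* none. *Foxp3*, the factor of regulatory T cells, gave 1 UMI. The proliferation gene *Mki67* gave 5, 2 and 1 UMIs. Over *Mki67*, *Top2a*, *Pclaf*, *Birc5* and *Stmn1*, a part of the cell cycle list, 10 of the 134 cells had 2 or more UMIs.

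The second comparison set the members against the other T cells, which had a CD3 UMI and none of the effector, NK or γδ genes of the rule (50, 37 and 48 cells). Interferon-γ and 2 chemokines were higher in the members, with *Nr4a2*, *Ms4a4b* and *AW112010*, and *Fos*, *Junb*, *Zfp36*, *Rora* and mitochondrial transcripts were lower. The members were gated on at least 2 UMIs of the effector genes and the other T cells on 0. Genes expressed along with those genes can thus be higher in the members through the gates, and this part was not tested. Of 431 genes tested, 14 passed (3.25%), 6 higher (1.39%) and 8 lower (1.86%). None of the 14 passed under every alternative in which it was tested. Without male library 2 none passed, without the female library 1 did (*Ccl4*), without male library 1 23 did, and with library left out of the design none did. With total UMI scaling 12 passed, 10 higher and 2 lower, and the median over all genes moved from −0.05 to 0.29. The directions of all 14 genes held under every alternative in which they were tested. The other T cells of male library 1 held 74.1% tear-product UMIs and 52 UMIs of the 5 fibroblast markers (2105 CPM), against 1 UMI in the members. Without cells that held 2 or more UMIs of other lineages, an alternative chosen after seeing the data, 39 genes passed, 9 higher and 30 lower.

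Of the 11 effector cytokines and chemokines, 4 passed the count filter and 3 of these were higher. The other T cells held 11, 6 and 7 UMIs of *Ccl4*, *Ifng* and *Xcl1*, so these genes passed the filter through the members, and the count says nothing of the list as a whole. *Ccl4* stood at 436, 1791 and 1581 CPM in the members and 117, 81.0 and 35.6 CPM in the other T cells (3.19 ± 0.52, adjusted p = 0.00485, edgeR). Its 116 UMIs in the members lay in 40 of 134 cells, and its 11 in the other T cells in 9 of 135. *Ifng* stood at 242, 1012 and 608 CPM against 43.9, 40.5 and 71.2 CPM (3.01 ± 0.57, adjusted p = 0.0063, edgeR), in 31 of 134 against 5 of 135 cells. *Xcl1* stood at 267, 857 and 487 CPM against 29.3, 0 and 178 CPM (2.70 ± 0.65, adjusted p = 0.0328, edgeR), in 34 against 4 cells. The 2 cell classes did not overlap over libraries for these genes. They were named as past the threshold, so this restates that choice, and the share of all tested genes without overlap was not counted. In free RNA *Ccl4* stood at 1228, 597 and 659 CPM (26, 28 and 23 UMIs), above the female members, below the male members and above the other T cells of every library, while *Ifng* and *Xcl1* had no UMI there. The part of free RNA in the *Ccl4* values was not tested. Pooled over libraries, no single cell held more than 17.2% of the *Ccl4*, 8.62% of the *Ifng* or 8.93% of the *Xcl1* UMIs of the members. Within male library 2, however, 1 cell held 20 of the 39 *Ccl4* UMIs, so the *Ccl4* level of that library rests largely on it. The fibroblasts had a *Ccl4* UMI in 8.78%, 1.92% and 3.77% of cells, against 37.3%, 33.3% and 17.4% of the members, and an *Ifng* UMI in none. Thinned to 1000 UMIs, the *Ccl4* shares were 3.88%, 1.36% and 2.33% against 21.5%, 27.8% and 25.0%.

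The promoters of *Ifng* and *Xcl1* are shown because these genes were higher together. *Ifng* is on the plus strand at chr10:118441046-118445894, with its window at chr10:118440796-118441045, and *Xcl1* on the minus strand at chr1:164931644-164935522, with its window at chr1:164935523-164935772. Capitals mark the T-box and RUNX cores as above and the TATA box letters TATAAA.
Ifng: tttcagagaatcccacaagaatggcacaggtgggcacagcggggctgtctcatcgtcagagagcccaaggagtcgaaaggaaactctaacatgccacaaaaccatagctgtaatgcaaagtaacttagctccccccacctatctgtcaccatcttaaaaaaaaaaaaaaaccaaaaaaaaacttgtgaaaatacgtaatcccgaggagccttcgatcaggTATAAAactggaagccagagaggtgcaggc
Xcl1: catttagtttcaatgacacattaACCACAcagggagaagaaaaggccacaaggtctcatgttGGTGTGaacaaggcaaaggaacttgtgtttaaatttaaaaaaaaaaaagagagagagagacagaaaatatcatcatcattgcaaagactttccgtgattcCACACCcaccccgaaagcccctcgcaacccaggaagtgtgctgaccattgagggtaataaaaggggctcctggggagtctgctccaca

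The *Ifng* window held a TATA box from 30 to 25 bases before the start and neither core. The *Xcl1* window held 1 RUNX core, from 227 to 222 bases before the start, and 2 T-box cores, from 188 to 183 and from 88 to 83 bases before it. The TATA letters were in 12.4% of all windows. The cAMP response element TGACGTCA, also searched, was in 1.55% of all windows and in none of those looked up.

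Of 15 immediate early genes, 11 were measured, 1 was higher and 3 were lower, with a median of −1.05. *Nr4a2*, an orphan nuclear receptor induced by T cell receptor signals, stood at 299, 934 and 933 CPM in the members and 87.8, 121 and 142 CPM in the other T cells (2.21 ± 0.45, adjusted p = 0.012, edgeR). It went the opposite way to the AP-1 genes. *Fos* stood at 550, 623 and 770 CPM against 1244, 1417 and 962 CPM (−1.09 ± 0.26, adjusted p = 0.0328, edgeR), *Junb* at 1172, 1713 and 1460 CPM against 3586, 2186 and 2030 CPM (−1.13 ± 0.25, adjusted p = 0.0164, edgeR), and *Zfp36*, which destabilises cytokine mRNA, at 259, 77.9 and 81.1 CPM against 1156, 445 and 214 CPM (−2.23 ± 0.42, adjusted p = 0.0063, edgeR). *Fos* and *Junb* did not overlap over libraries, which restates their choice as genes past the threshold. *Zfp36* did overlap, since the female members lay above the other T cells of male library 2. *Jun* did not pass (−1.23 ± 0.33, adjusted p = 0.053, edgeR). In free RNA *Fos* stood at 897, 1279 and 1233 CPM and *Zfp36* at 661, 746 and 487 CPM, above the members in every library, and *Junb* at 756, 938 and 717 CPM, below them. *Nr4a2* stood there at 0, 21.3 and 172 CPM. The part of free RNA in these differences was not tested.

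*AW112010* was between the 2 comparison classes. It stood at 1625, 1168 and 1703 CPM in the members, 498, 162 and 427 CPM in the other T cells (1.82 ± 0.26, adjusted p = 0.00292, edgeR) and 3070, 2600 and 2487 CPM in the NK cells (−0.90 ± 0.15, adjusted p = 2.00e-04, edgeR). The 3 classes did not overlap, for a gene named as past the threshold in both comparisons. *Ms4a4b*, a T cell membrane protein, stood at 1156, 779 and 973 CPM against 161, 81.0 and 427 CPM in the other T cells (2.13 ± 0.39, adjusted p = 0.0063, edgeR). *AW112010* and *Ms4a4b* both lie on chromosome 19, at chr19:11047612-11050566 and chr19:11443558-11463549.

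*Rora*, a nuclear receptor of innate lymphoid and helper T cells, stood at 186, 0 and 122 CPM in the members against 776, 162 and 392 CPM (−2.16 ± 0.47, adjusted p = 0.0164, edgeR). It is a marker of the innate lymphoid list, which summed to 331, 0 and 162 CPM in the members and 2532, 364 and 499 CPM in the other T cells; whether innate lymphoid cells with a CD3 UMI are among the latter was not tested. Of 10 mitochondrial transcripts, 4 were lower, *mt-Cytb* (−1.18 ± 0.21), *mt-Nd4* (−1.03 ± 0.19), *mt-Co2* (−0.90 ± 0.21) and *mt-Nd2* (−0.79 ± 0.20), and all 10 lay below 0, with a median of −0.79. Over all 431 genes tested, 236 lay below 0 and 8 were lower (1.86%). With cells limited to under 5% mitochondrial UMIs, or with total UMI scaling, none of the 10 passed (medians of −0.44 and −0.40). No mitochondrial transcript passed either with DESeq2, with library left out of the design, without the female library or without male library 2. Mitochondrial UMIs were 3.73%, 2.66% and 3.48% of the UMIs outside tear-product genes in the members and 5.25%, 4.38% and 6.098% in the other T cells, so the members were lower in every library.

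None of the 6 receptor and signalling genes measured, 7 heat shock genes, 3 tissue residence genes, 2 transcription factors, 2 interferon-stimulated genes, 2 cell cycle genes, 1 cytokine receptor or 1 granule gene passed against the other T cells. *Trac* was at 482 ± 192 CPM in the members and 271 ± 153 CPM in the other T cells (SD, n = 3 libraries). No gene of the NK receptor, recirculation, checkpoint or helper lists had enough UMIs to be tested there.

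**Figure D5:**
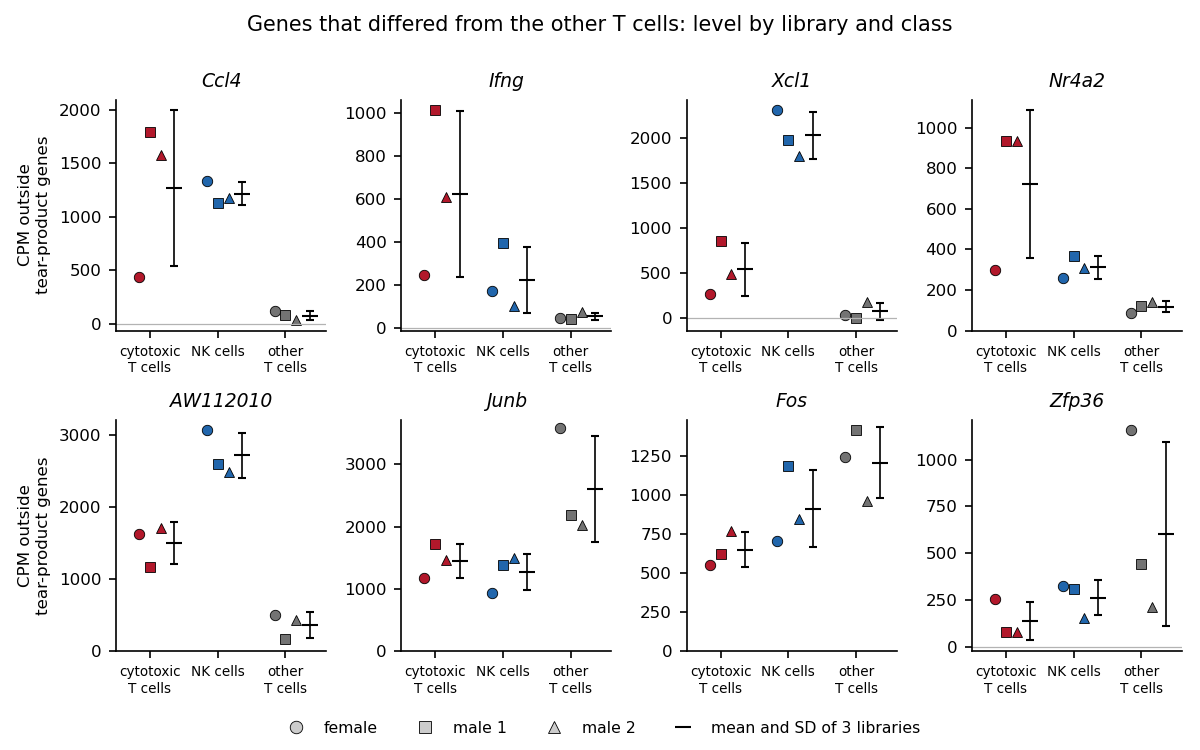
Level (y axis, CPM outside tear-product genes, linear) of genes that differed between the cytotoxic T cells and the other T cells; each point is a library (circle female, square male 1, triangle male 2), and the bar gives the mean and SD of 3 libraries. *Ccl4*, *Ifng*, *Xcl1* and *Nr4a2* are higher in the cytotoxic T cells in each library, and *Fos* and *Junb* are lower.

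Within the members, cells with a CD8 UMI (35, 4 and 8) were set against those without (32, 17 and 38). Of 259 genes tested, 0 passed (0%), 5 had an unadjusted p under 0.05 and DESeq2 called 0, with 2 at an unadjusted p under 0.05. Without male library 1, 2 genes passed, *Apoe* (3.24 ± 0.66) and *Hspa1b* (−1.45 ± 0.33). Cells with a UMI of *Ly6c2* (43, 10 and 17 cells) against those without (24, 11 and 29) also gave 0 of 211 (0%), with 8 at an unadjusted p under 0.05, and DESeq2 called 0, with 4. Without the female library 1 gene passed, the tear-product gene *Mucl2* (−0.22 ± 0.06). With 4 and 8 cells with a CD8 UMI in the male libraries, a difference was not detectable at this depth except where it was large, and none is shown to be absent. A cell without a CD8 UMI may also carry CD8 that was not sampled, which was not tested. Members with a CD8 UMI had a median of 2701, 1416 and 1103 UMIs and those without 2278, 1356 and 1130.5. In male library 2 the cells without it were thus slightly deeper. A *Ly6c2* UMI and a CD8 UMI occurred together in 22, 2 and 2 cells.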

How the data were processed

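Droplet scRNAseq (10x Genomics) was done on 3 libraries of pooled LG cells. The authors deposited raw counts (UMIs) for each barcode, made with Cell Ranger 6.1.2 on mm10 (submitters' processing notes), before their own correction for ambient RNA, doublet removal and cell filters. The values used are these raw counts of called barcodes; the annotation release is not given in the sources used here. Total counts of called barcodes were 63066640, 40609390 and 44661762. Barcodes above 500 UMIs and 200 genes with under 15% mt- UMIs were kept (8298, 5582 and 5712). No ambient correction was applied and doublets were kept, with scrublet (scanpy 1.11.5) as an alternative. Counts were summed per library and class and tested with edgeR 4.0.16 (glmQLFTest, TMM, filterByExpr, library block, adjusted p under 0.05) in R 4.3.3; DESeq2 1.42.0 was an alternative. The block pairs both classes of a library, which come from the same cell suspension. The scripts were tested on simulated data.

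The members and lists were chosen with earlier results of these data known. Genes named are, per comparison, the 10 with the largest and the 10 with the smallest log2 fold change among those past the threshold, up to 4 per list past it, those a result turns on, and the genes of the rule. There were 14 gene lists (183 genes) and 15 marker lists. Promoter sequences are from RefSeq (GRCm38.p6). Replicates were pools, and the library block takes out differences in level between libraries. With the block, p-values weigh the difference between the classes within a library against its spread over pools, not over single animals. edgeR estimates this spread with information shared across the genes tested, so no p-value rests on the spread of its own gene alone.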

Additional observations from a re-analysis of the deposited data

Results flagged for a closer look

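*Ccl4* moved in opposite directions in the female and the male libraries between members and NK cells. It stood at 436 CPM in the female members against 1337 CPM in the female NK cells, and at 1791 and 1581 CPM in the male members against 1130 and 1179 CPM. The female effect minus the male effect was −2.12 on the log2 scale. In free RNA *Ccl4* stood at 1228 CPM in the female library and at 597 and 659 CPM in the male libraries, so the female members lay below their free RNA and the male members above it; its part in the difference was not tested. Between members with and without a *Ly6c2* UMI the female effect of *Ccl4* was 3.21 above the male effect. The UMIs were 45, 10 and 1 in the cells with *Ly6c2* and 9, 13 and 38 in those without, and 20 of the UMIs of male library 2 lay in 1 cell. In the same contrast the female effect was higher by 0.75 for *Malat1*, a nuclear RNA, and by 0.23 for the tear-product gene *Mucl2*. *Malat1* stood at 21373, 12539 and 12593 CPM with *Ly6c2* and 13674, 12685 and 13355 CPM without. These differences came from the interaction term of an edgeR model in which the female side is 1 library, so the spread between female pools is not in it, and no p-value is given: a difference between the sexes was not tested. Sex cannot be told apart from sequencing core or day.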

How the results depend on the processing

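The count of genes that passed against NK cells was 37. It was 24 with total UMI scaling, 12 with DESeq2, 57 without the count filter, 10 with no replicate block (library not in the design), 19 with members that had a CD8 UMI only, and 24 with NK cells of 2 or more UMIs. Leaving out each library gave 16 to 43. Against the other T cells it was 14, and 4 with DESeq2, 26 without the count filter, 0 with no replicate block, 30 with tear-product genes left out, 6 under 5% mt- UMIs, 31 without the highest scrublet scores and 23 with members that had a CD8 UMI only. Among alternatives chosen after seeing the data it was 26 with cells under 80% tear-product UMIs and 39 with cells under 2 UMIs of other lineages. Leaving out each library gave 0 to 23. The CD8 and *Ly6c2* splits gave 0 to 2 and 0 to 1 genes when a library was left out, and 0 under every other alternative. The block pairs the classes of a library; it changed the call of 41 of 55 single-gene values. No single-gene value reversed except *Ccl4* against NK cells, which ranged from −1.06 to 0.45 when a library was left out (0.45 without the female library) and was 0.078 with CD8 members only, not past the threshold in any of these. The causes were not tested.

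Counting only cells with a CD8 UMI gave shares of 0.422%, 0.0717% and 0.140%. Over all UMIs the mean levels in the members were 424 CPM for *Cd3g*, 2779 CPM for *Ccl5*, 495 CPM for *Ly6c2* and 612 CPM for *Nkg7*, since tear-product UMIs then enter the denominator. Depth is one limit: male library 1 held 12842 UMIs outside tear-product genes over its 21 members, where 1 UMI is 77.9 CPM.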
